A study of Mus musculus with 16 samples.

Results

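The Nr4a orphan nuclear receptors are 3 genes, Nr4a1, Nr4a2 and Nr4a3, out of 45706 gene IDs counted in 16 RNA sequencing libraries of mouse bone marrow. They were chosen by name, 1 ID per gene, at a time when the Day0 difference of Nr4a1 between the genotype labels was already known. Their Day0 difference between labels, and the difference between labels in the Day0 to Day2 change, are therefore given as descriptions without a test. All 3 passed the low count filter in both cell fractions, Nr4a3 in LSK cells with 43 to 103 counts per library at Day0 and 0 to 35 at Day2.

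Nuclear receptors are transcription factors that join a zinc finger DNA-binding domain to a ligand-binding domain. The Nr4a proteins are called orphans because bulky side chains fill their ligand pocket, so their activity depends mainly on how much of each protein a cell makes and how it is modified. They are immediate early genes, transcribed within minutes of a growth factor, cAMP, calcium or stress signal without new protein synthesis, and cAMP acts on them through CREB factors at promoter elements. They bind the NBRE element as monomers, and Nr4a1 and Nr4a2 can also pair with the retinoid X receptors. In blood, Nr4a1 reports antigen receptor signalling in lymphocytes and is needed for nonclassical monocytes, and mice without both Nr4a1 and Nr4a3 develop acute myeloid leukaemia.

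The series concerns haploinsufficiency of Gata2, a zinc finger transcription factor of blood stem cells, tested by transplanting few sorted LSK cells into irradiated WT mice. LSK cells are lineage negative, Sca-1 positive and Kit positive, the marrow fraction of stem cells and early progenitors, and gave 2 Day0_WT, 3 Day0_Gata2, 3 Day2_WT and 2 Day2_Gata2 libraries. The CD45.2 BM (bone marrow) cells, named for a variant of the pan-leukocyte protein CD45 that sets donor cells apart from a recipient's, gave 3 Week2_WT and 3 Week2_Gata2 libraries. The labels give no strain, age, allele or treatment, do not say what was done between Day0 and Day2, and leave unsaid whether replicates are separate animals. Every p-value is therefore relative to library-to-library spread alone, and that spread may be technical.

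Total counts were 19.6 to 68.3 M in LSK libraries and 177 to 321 M at Week2. Day0_WT replicate 1 was the shallowest and stood apart, with 9.33% of its counts on repeat-rich genes. Gata2 itself had no lower level under the Gata2 label at Day0 or Day2 (611 to 752 against 329 and 446 CPM, and 491 and 737 against 259 to 291), and at Week2 the labels overlapped, so directions between genotypes are those of libraries so labelled. All 9 LSK markers averaged 1 CPM (read counts scaled to library size) or more in every Day0 and Day2 group, where their summed level was 1487 to 2481 CPM, against 66.0 to 170 CPM at Week2. The Week2 libraries carried 16379 to 83181 CPM of 6 neutrophil markers and 2306 to 4850 CPM of 5 B cell markers. Library names number the 3 times in separate runs and the labels name 2 library kits without saying which library had which, so time and library preparation cannot be told apart.

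Nr4a1 (ENSMUSG00000023034) lies at chr15:101254269-101274795 on the plus strand of mm10, Nr4a2 (ENSMUSG00000026826) at chr2:57106830-57124003 on the minus strand, and Nr4a3 (ENSMUSG00000028341) at chr4:48045153-48086447 on the plus strand. All 3 are protein coding, and 0 annotated genes overlapped any of them. Their exons cover 3509, 4059 and 5987 bases, the lengths used below to compare levels between the genes.

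The bases before the RefSeq start sites are shown because all 3 genes hold a cluster of the core motif of the cAMP response element, and Nr4a1 and Nr4a2 fell together between Day0 and Day2. Sequences are from RefSeq (GRCm38.p6, the build of mm10), 5′ to 3′ on the strand of the gene, with each core motif, TGACG or its reverse complement CGTCA, in capitals. The Nr4a1 stretch is chr15:101266596-101266845, inside the annotated gene and clear of its exons; the Nr4a2 stretch is chr2:57124004-57124253, on the minus strand, directly before the annotated gene. The Nr4a3 stretch is chr4:48045055-48045152, also before the annotated gene, and only 98 bases are printed because the other 152 of the 250 bases before the RefSeq start are annotated as exon.
Nr4a1: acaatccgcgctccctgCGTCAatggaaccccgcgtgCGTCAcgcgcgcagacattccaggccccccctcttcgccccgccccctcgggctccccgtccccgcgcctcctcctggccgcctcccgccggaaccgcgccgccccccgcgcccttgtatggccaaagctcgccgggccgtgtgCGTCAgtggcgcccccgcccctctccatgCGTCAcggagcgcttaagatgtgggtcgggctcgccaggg
Nr4a2: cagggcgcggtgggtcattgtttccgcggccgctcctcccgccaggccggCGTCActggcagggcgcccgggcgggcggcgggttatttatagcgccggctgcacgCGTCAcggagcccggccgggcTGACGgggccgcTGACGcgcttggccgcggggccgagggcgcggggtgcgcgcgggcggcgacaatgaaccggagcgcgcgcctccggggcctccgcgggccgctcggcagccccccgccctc
Nr4a3: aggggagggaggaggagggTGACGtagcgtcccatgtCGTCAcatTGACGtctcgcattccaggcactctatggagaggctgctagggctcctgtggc

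Each of the 3 windows, 250 bases before to 50 after the start, held 4 core motifs, counted on both strands. Among 32851 RefSeq promoter windows of the same length, 20.8% held 1 or more and 0.231%, or 76 windows, held 4 or more. G and C made up 72.3% of the Nr4a1 window, 81.7% of Nr4a2 and 64.7% of Nr4a3. The other windows were not matched for this, so the share among windows of like content was not tested. Counted from the start site, they began at -233, -213, -69 and -40 in Nr4a1, at -200, -144, -123 and -111 in Nr4a2, and at -231, -213, -205 and -147 in Nr4a3, the last outside the printed stretch. In Nr4a1 each of the 4 lay inside the longer run TGCGTCA, searched on both strands. Of all windows 2.12% held this run at least 1 time, and only the Nr4a1 window held it 3 or more times. Because the run is reported for its place in Nr4a1, this is a description and not a test.

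The full palindrome of the element, TGACGTCA, the AP-1 site TGANTCA, the Nr4a element NBRE (AAAGGTCA), GATAA and the serum response element had 0 matches on either strand in all 3 windows, against 1.79%, 7.81%, 1.51%, 25.4% and 1.63% of all windows with a match. An EGR site, GCGGGGGCG, stood at -60 to -52 in Nr4a1 (2.91% of windows hold it), and TATAAA at -164 to -159 in Nr4a2 (13.6%). These shares, too, are over windows not matched for G and C content. A match describes letters and not a bound site, and no match says only that these letters are not in this window.

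**Figure D1:**
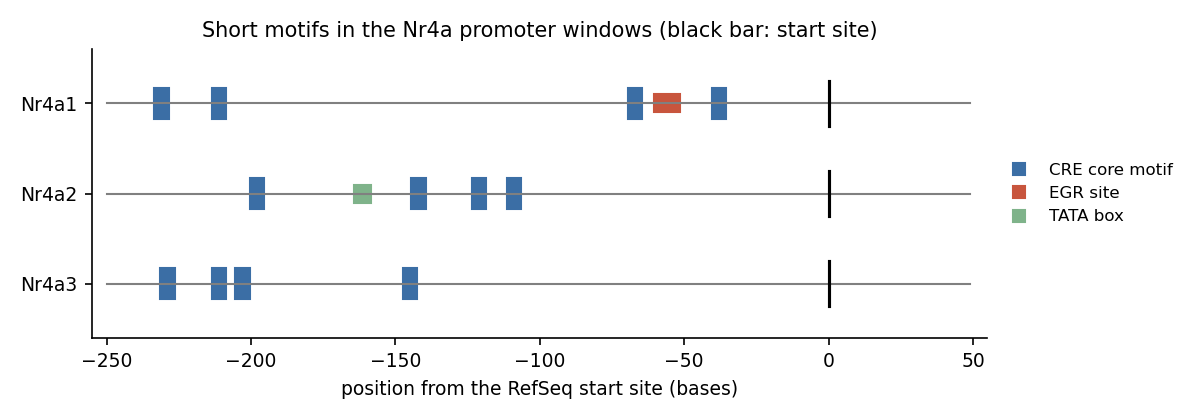
Motif matches in the 3 promoter windows; the x axis gives the position from the RefSeq start site in bases and each row is 1 gene. Each gene has 4 core motifs of the cAMP response element (blue), all before the start site, and Nr4a1 has its pairs at both ends of the stretch.

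In LSK cells all 3 genes were at their highest at Day0, where Nr4a1 and Nr4a2 stood higher in every WT library than in any library labelled Gata2, and both fell by Day2 under either label. Nr4a1 was the leading member throughout: per kilobase of exon it made up 59.9% to 96.1% of the family's reads in each library. At Week2 the labels overlapped for all 3. In these bulk libraries, fewer cells that express a gene and less of its RNA per cell cannot be told apart.

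**Figure D2:**
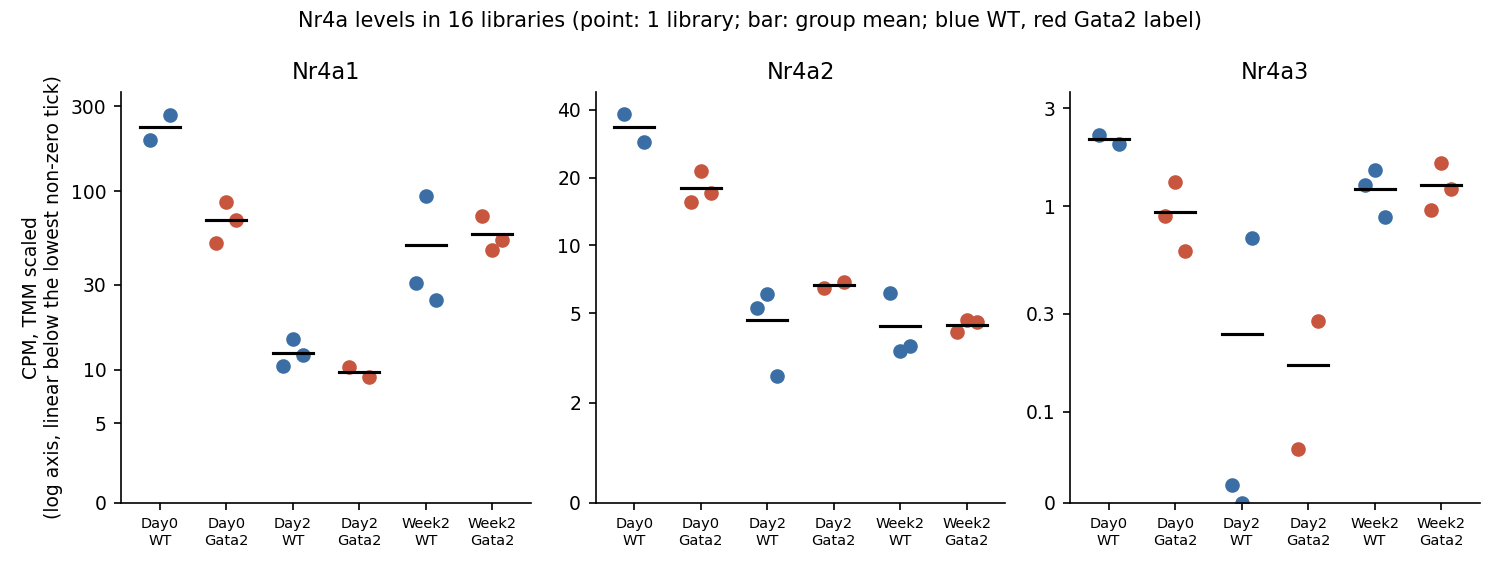
Level of each Nr4a gene (y axis, TMM-scaled CPM, log axis that is linear near 0) in the 16 libraries by group (x axis); points are libraries, bars are group means, blue is WT and red the Gata2 label. Nr4a1 runs from 267 CPM in a Day0_WT library to 9.09 in a Day2_Gata2 library, and the Day0 groups do not overlap for any of the 3 genes.

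Nr4a1 stood at 193 and 267 CPM in Day0_WT and at 51.1, 87.5 and 68.9 CPM in Day0_Gata2. The higher of the WT libraries was a female one by its lack of the Y-linked Ddx3y, and the lower WT library still stood above each Gata2-labelled library, male or female. Group means were 230 ± 51.7 CPM (SD, n = 2) and 69.2 ± 18.2 (n = 3), a log2 fold change of -1.73 (SE 0.25) or 3.33-fold lower. It was -1.29 without Day0_WT replicate 2 and -1.96 at most under the other settings tried.

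Nr4a2, best known from dopamine neurons, stood at 38.3 and 28.7 CPM in Day0_WT and at 15.7, 21.4 and 17.1 CPM in Day0_Gata2. Here Day0_WT replicate 1 was the higher WT library, the reverse of the order seen for Nr4a1, and the groups again did not overlap. Means were 33.5 ± 6.73 CPM (SD, n = 2) and 18.1 ± 3.01 (n = 3), a log2 fold change of -0.89 (SE 0.35) or 1.85-fold lower.

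Nr4a3, whose joint loss with Nr4a1 is leukaemogenic in mice, was low throughout. It had 46 and 103 counts in Day0_WT, or 2.22 and 2.02 CPM, and 45, 66 and 43 counts in Day0_Gata2, or 0.898, 1.31 and 0.605 CPM. The groups did not overlap, and the log2 fold change was -1.17 (SE 1.36).

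Over all 19162 genes tested in LSK cells, edgeR called 0 genes at Day0 (0%), higher or lower, with 2586 at an unadjusted p under 0.05, and DESeq2 called 417. Groups did not overlap, with the Gata2 label higher, for 18.3% of genes and, with it lower, for 14.2%. The 3 members were all on the lower side, and since they were chosen with this contrast known nothing is read from that. LSK marker sums were 2014 to 2080 CPM in Day0_WT and 2185 to 2481 CPM in Day0_Gata2; their part in the Nr4a values was not tested.

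At Day2 Nr4a1 stood at 10.5, 14.9 and 12.0 CPM in Day2_WT and at 10.4 and 9.09 CPM in Day2_Gata2. Every Day2 library was thus below every Day0 library, by a wide gap. In WT the mean went from 230 to 12.5 ± 2.27 CPM (SD, n = 3), 18.4-fold lower, or -4.20 on the log2 scale (SE 0.27, edgeR adjusted p = 4.14e-05). Under the Gata2 label it went from 69.2 to 9.73 ± 0.906 CPM (n = 2), 7.10-fold lower, or -2.83 on the log2 scale (SE 0.28, adjusted p = 0.000557).

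Nr4a2 stood at 5.27, 6.08 and 2.62 CPM in Day2_WT and at 6.48 and 6.84 CPM in Day2_Gata2. These 5 libraries, too, lay below all 5 Day0 libraries. It fell in WT by 2.85 on the log2 scale (SE 0.36, adjusted p = 0.000917, edgeR), 7.19-fold, to a mean of 4.66 ± 1.81 CPM (SD, n = 3). Under the Gata2 label it fell by 1.44 (SE 0.37, adjusted p = 0.0425), 2.71-fold, to 6.66 ± 0.257 CPM (n = 2). That second call is a narrow one: the fall stayed between 1.29 and 1.57 on the log2 scale when each library was left out, while the adjusted p ran from 0.0106 to 0.212 and was above the threshold in 7 of those 10 fits; it stayed below without either Day0_WT library and without Day2_WT replicate 3. With the replicate number as a block it was -1.64, with an adjusted p of 0.067.

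Nr4a3 was close to the limit of counting at Day2. It had 1, 0 and 35 counts in Day2_WT and 3 and 14 counts in Day2_Gata2, or 0.019, 0, 0.699, 0.0593 and 0.276 CPM. The library without a count allows up to 3 counts, or 0.0608 CPM, which covers counting error only. Day2_WT replicate 3 alone stood within the Day0_Gata2 range, and no Day2 library reached the Day0 library of its own label. On the log2 scale the change was -3.14 in WT (SE 1.42, adjusted p = 0.122, edgeR) and -2.47 under the Gata2 label (SE 1.56, adjusted p = 0.373), so neither passed. Without Day2_WT replicate 3 the value in WT was -7.47 (adjusted p = 0.00894).

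Between Day0 and Day2, edgeR called 29.9% of genes in WT, 11.9% higher and 17.9% lower, and 9.3% under the Gata2 label, 4.48% higher and 4.82% lower. The order of these counts depended on the fit: 5720 genes in WT and 1782 under the Gata2 label became 1199 and 5676 with only the groups compared, and ran from 3191 to 12386 and from 499 to 4863 with single libraries left out. Nr4a1 and Nr4a2 were called lower under both labels, 2 of 3 members. Groups did not overlap, with Day2 lower, for 26.7% of genes in WT and 34.4% under the Gata2 label, and this held for all 3 members. Of the 10575 other genes averaging 5 CPM or more, 90 fell further than Nr4a1 in WT and 125 under the Gata2 label, and for Nr4a2 the numbers were 205 and 447. Over all genes tested, low ones included, 7.33% and 8.54% had a more negative log2 fold change than Nr4a1, and 12.0% and 16.4% than Nr4a2. The median log2 fold change over all genes was -0.11 in WT and -0.07 under the Gata2 label.

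Nr4a1 and Nr4a2 had a more negative change over time in WT than under the Gata2 label. The Gata2-labelled change exceeded the WT change by 1.38 on the log2 scale for Nr4a1 (SE 0.35), by 1.41 for Nr4a2 (SE 0.50) and by 0.67 for Nr4a3 (SE 2.03), whose value turned to -0.80 without Day2_Gata2 replicate 2. These contain the Day0 difference that was known and are given without a test. Over all genes edgeR called 0 such differences (0%), with 1984 at an unadjusted p under 0.05, and DESeq2 called 216.

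Several other measures moved with time. Summed B cell markers were 55.9 to 106 CPM at Day0 and 18.8 to 31.1 at Day2, neutrophil markers 75.8 to 266 and 598 to 1711, monocyte and macrophage markers 265 to 596 and 783 to 1104, and mast cell and basophil markers 312 to 588 and 101 to 164. Erythroid markers were 33.3 to 56.2 and 2.07 to 10.9 CPM, and LSK markers 2014 to 2481 and 1487 to 1675. Stromal and endothelial markers summed to 128 to 166 and 274 to 339 CPM. Within that sum Pecam1 was 89.8 to 124 and 167 to 192 CPM and Vwf 0.774 to 50.5 and 82.6 to 164. Cxcl12 was 10.3 to 33.9 and 0 to 0.158 CPM, Col1a1 and Cdh5 were also lower at Day2, and Lepr stayed at or below 0.324. Of the monocyte and macrophage markers, Ccr2 and Ly6c2 were higher in every Day2 library, and Csf1r, Cd68, Adgre1 and Itgam overlapped. Of the mast cell and basophil markers, Cpa3 was higher at Day2 (41.7 to 71.3 and 72.8 to 96.7 CPM), and Mcpt8, Fcer1a and Prss34 were lower. T and NK cell markers overlapped, at 148 to 274 and 105 to 151 CPM; of these 5, Cd3e and Cd8a had 0 counts in every Day2 library and Nkg7 stood at 105 to 150 CPM. Repeat-rich genes took 5.10% to 9.33% of counts at Day0 and 2.8% to 4.39% at Day2. Genes with a count numbered 22150 to 30564 at Day0 and 19266 to 21944 at Day2. The part of these measures in the Nr4a falls was not tested.

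At Day2 none of the 3 genes passed the test between labels. On the log2 scale the difference was -0.36 for Nr4a1 (SE 0.26, adjusted p = 1, edgeR), 0.52 for Nr4a2 (SE 0.35, adjusted p = 0.994) and -0.50 for Nr4a3 (SE 1.48, adjusted p = 1). The direction of Nr4a3 was not determined: it was 3.82 without Day2_WT replicate 3, 0.33 without Day2_Gata2 replicate 1, -1.96 without Day2_Gata2 replicate 2 and 1.60 with the replicate block. The Nr4a1 groups met closely, with 10.5 CPM in the lowest WT library and 10.4 in the highest Gata2-labelled one, and without a scaling factor they overlapped. The Nr4a2 groups did not overlap, both Gata2-labelled libraries being above all 3 WT libraries, the opposite of their order at Day0. Groups did not overlap for 9.96% of genes with the Gata2 label higher and 11.1% with it lower. edgeR called 0 of 19162 genes (0%), with 1070 at an unadjusted p under 0.05, and DESeq2 called 144.

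At Week2, in the CD45.2 marrow cells, Nr4a1 stood at 30.5, 94.0 and 24.7 CPM in Week2_WT and at 73.1, 47.1 and 53.5 CPM in Week2_Gata2. Week2_WT replicate 2 was the highest of the 6 and the other WT libraries the lowest, so the 3.81-fold range within WT enclosed the whole Gata2-labelled group. Means were 49.7 ± 38.5 and 57.9 ± 13.5 CPM (SD, n = 3 each), which differed by 0.22 on the log2 scale (SE 0.51, adjusted p = 1, edgeR).

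Nr4a2 at Week2 was highest in Week2_WT replicate 1, at 6.12 CPM, with 3.41 and 3.56 in the other WT libraries and 4.12, 4.65 and 4.56 in Week2_Gata2. Nr4a3 stood at 1.26, 1.49 and 0.881 CPM in Week2_WT and 0.957, 1.63 and 1.22 in Week2_Gata2. Both overlapped between labels, with log2 fold changes of 0.03 (SE 0.44) and 0.06 (SE 0.58) and an adjusted p of 1 each. edgeR called 0 of 36485 genes at Week2 (0%), with 87 at an unadjusted p under 0.05, and DESeq2 called 1. Groups did not overlap for 0.674% of genes with the Gata2 label higher and 0.737% with it lower, and for 0 of the 3 members.

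The Week2 libraries differed in their cell type markers within each label. On the Week2 TMM scale, Week2_WT replicate 2, highest for Nr4a1, had the lowest B cell marker sum of the 6 libraries, 2306 CPM. Week2_WT replicate 1, highest for Nr4a2 on that scale, had the highest sum, 4850 CPM. Without a scaling factor Nr4a2 was highest in Week2_Gata2 replicate 3, at 6.53 CPM against 4.84 in Week2_WT replicate 1. With TMM over all 16 libraries these values were 5.71 and 5.40 CPM. Erythroid markers summed to 19.6 to 6877 CPM over the 6 libraries. Their part in the Nr4a values was not tested.

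Across the 6 groups, the order of mean Nr4a1 levels was Day0_WT, Day0_Gata2, Week2_Gata2, Week2_WT, Day2_WT and Day2_Gata2, with Day0_WT clear of the next group. Day0_Gata2 and both Week2 groups overlapped one with the next, and both Day2 groups lay below them. For Nr4a2 the order was Day0_WT, Day0_Gata2, Day2_Gata2, Day2_WT, Week2_Gata2 and Week2_WT, and the last 3 overlapped. Nr4a3 differed from both in that the Week2 groups, at 1.27 and 1.21 CPM, came right after Day0_WT and overlapped Day0_Gata2, with both Day2 groups last. The Nr4a1 and Nr4a3 orders were the same with TMM over all 16 libraries and without a scaling factor, while without a factor Week2_Gata2 stood before Day2_WT for Nr4a2. LSK and Week2 libraries were scaled apart, and no test was made between them.

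The balance within the family was described per kilobase of exon, so that the genes can be compared. At Day0 Nr4a1 gave 83.7% ± 4.75 (SD, n = 5) of the family's reads per kilobase and Nr4a2 15.7% ± 4.62. At Day2 the shares were 70.0% ± 8.44 and 29.1% ± 9.11 (n = 5). By group, the Nr4a2 share was 11.5% in Day0_WT, 18.6% in Day0_Gata2, 23.9% in Day2_WT and 37% in Day2_Gata2. At both times every Gata2-labelled library thus had a larger Nr4a2 share than any WT library. At Day0 this contains the Nr4a1 difference that was already known, and at Day2 neither Nr4a1 nor Nr4a2 passed between labels. The shares are descriptions without a test. Under either label Nr4a1 fell further than Nr4a2.

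At Week2 Nr4a1 held 90.7% ± 4.70 (SD, n = 6) and Nr4a2 7.92% ± 4.20. Nr4a3 stayed at or below 2.78% in every library. Summed over the 3 genes, the family had 74.2 ± 13.1 RPKM (CPM divided by the exon length in kilobases) in Day0_WT and 24.3 ± 5.94 in Day0_Gata2, then 4.75 ± 0.877 and 4.44 ± 0.169 at Day2. At Week2 it had 15.4 ± 10.8 and 17.8 ± 3.73 RPKM.

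**Figure D3:**
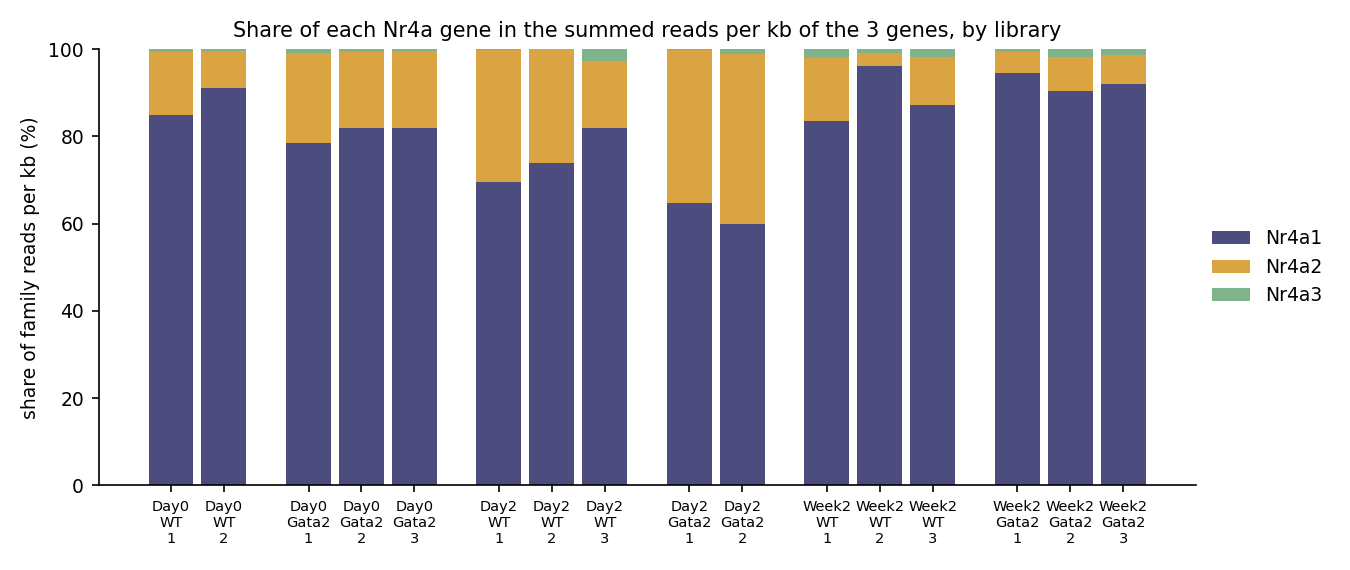
Share of each Nr4a gene in the family's summed reads per kilobase (y axis, percent, from 0) in each of the 16 libraries (x axis, by group and replicate). Nr4a1 holds most of every bar, and the Nr4a2 band is widest in the 2 Day2_Gata2 libraries, at 35% and 39%.

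The 49 nuclear receptor genes were ranked at each time with both labels pooled. Nr4a1 was 3rd by mean level at Day0, at 38 RPKM, behind the retinoid X receptor gene Rxrb (62.6) and the liver X receptor gene Nr1h2 (46.8). That pooled mean hides a gap between labels, with 65.6 RPKM for Nr4a1 in Day0_WT and 19.7 in Day0_Gata2. At Day2 it was 12th, at 3.24 RPKM, and at Week2 4th, at 15.3 RPKM. Nr4a2 was 9th, 18th and 16th at the 3 times, at 5.97, 1.34 and 1.08 RPKM. Nr4a3 was 26th, 31st and 37th. Rxrb, which encodes a dimer partner of Nr4a1 and Nr4a2, had 52.9 RPKM at Day2, and the glucocorticoid receptor gene Nr3c1 had 13.2 RPKM at Day0 and 9.64 at Day2, so both stayed abundant where Nr4a1 was low.

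Of the 46 other receptors, 34 passed the filter in LSK cells. From Day0 to Day2, 17.9% of all genes tested were called lower and 11.9% higher in WT, and 4.82% and 4.48% under the Gata2 label. Of the 34 receptors, 11 were called lower and 0 higher in WT, with a median log2 fold change of -0.70. Under the Gata2 label 2 were lower and 0 higher, with a median of -0.41. The 4 of lowest p in WT were Hnf4a, the liver and gut receptor (-4.31, SE 0.36, adjusted p = 0.000149), the thyroid hormone receptor gene Thra (-1.53, SE 0.28), the oestrogen receptor gene Esr1 (-1.24, SE 0.25) and Rxra (-2.0, SE 0.43). Hnf4a and Rxra were the 2 called under the Gata2 label, at -3.74 and -2.76. With single Day0_Gata2 or Day2_WT libraries left out, 33 or 34 receptors were tested. In WT 6 to 11 of them were then lower (all genes: 10.1% to 14.2%). Under the Gata2 label 2 were lower each time (all genes: 2.07% to 4.29%). With any single library left out, the median ran from -1.59 to -0.28 in WT and from -0.97 to -0.33 under the Gata2 label. The WT extremes were the fits without Day0_WT replicate 2, where 41 receptors were tested, and without Day0_WT replicate 1.

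**Figure D4:**
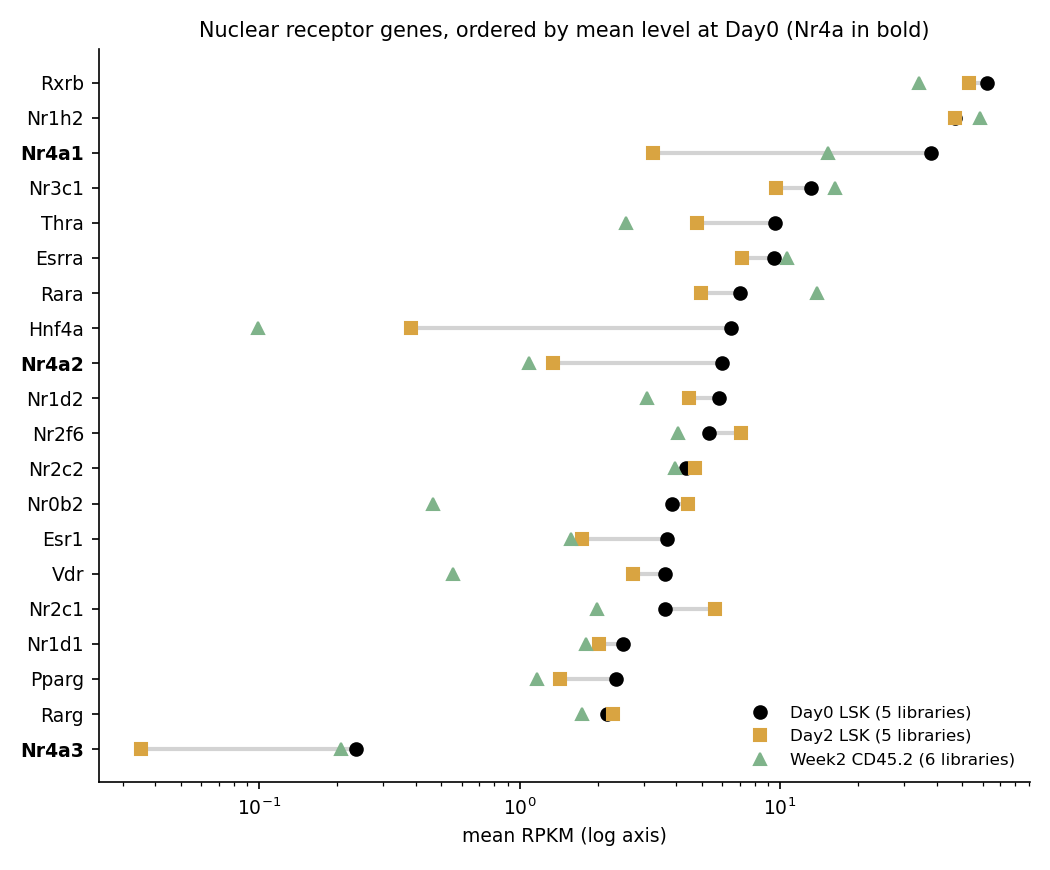
Mean level (x axis, RPKM, log axis) of Nr4a3 and of the 19 nuclear receptor genes ranked 15th or higher at Day0, Day2 or Week2. Levels are for Day0 and Day2 in LSK cells and Week2 in CD45.2 marrow cells, with 5, 5 and 6 libraries and both labels pooled. Nr4a1 moves from 38 to 3.24 RPKM between Day0 and Day2, while Rxrb and Nr1h2 stay at the right edge.

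The immediate early genes that are induced with Nr4a fell over the same interval. Of 22 genes besides the 3 members, 16 were lower and 0 higher in WT (all genes: 17.9% and 11.9%). Under the Gata2 label 18 were lower and 0 higher (all genes: 4.82% and 4.48%). The median log2 fold changes of the 22 were -2.50 and -2.49. The 4 of lowest p in WT were Dusp1, a MAP kinase phosphatase (-5.92, SE 0.26), the AP-1 subunit gene Jun (-5.43, SE 0.28), Dusp2 (-2.93, SE 0.15) and the AP-1 subunit gene Fos (-7.83, SE 0.42). Under the Gata2 label they were Jun (-6.65, SE 0.35), Dusp1 (-6.09, SE 0.31), the mRNA decay factor gene Zfp36 (-4.16, SE 0.26) and Fos (-7.48, SE 0.49). The WT fall of Nr4a1, 4.20 on the log2 scale, thus lay between those of Zfp36 (-4.11) and the Kruppel-like factor gene Klf4 (-4.21).

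Leaving out single Day0_Gata2 or Day2_WT libraries gave 16 lower in WT each time (all genes: 10.1% to 14.2%). Under the Gata2 label it gave 17 or 18 lower (all genes: 2.07% to 4.29%). With any single library left out, the median ran from -2.81 to -2.18 in WT and from -2.64 to -2.28 under the Gata2 label. At Day0 19 of the 22 had a negative log2 fold change between labels, the direction of the 3 Nr4a genes. The median was -0.31 against 0.02 over all genes, and Jun had 0.03, Fos -0.28 and Dusp1 -0.31. At Day2 19 of the 22 were negative as well, with a median of -0.48 against -0.00098 over all genes, while Nr4a2 had 0.52 there. Whether these sizes differ from those of the Nr4a genes was not tested. edgeR called 0 of the 22 between labels at Day0, Day2 and Week2, as it called 0% of all genes there.

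**Figure D5:**
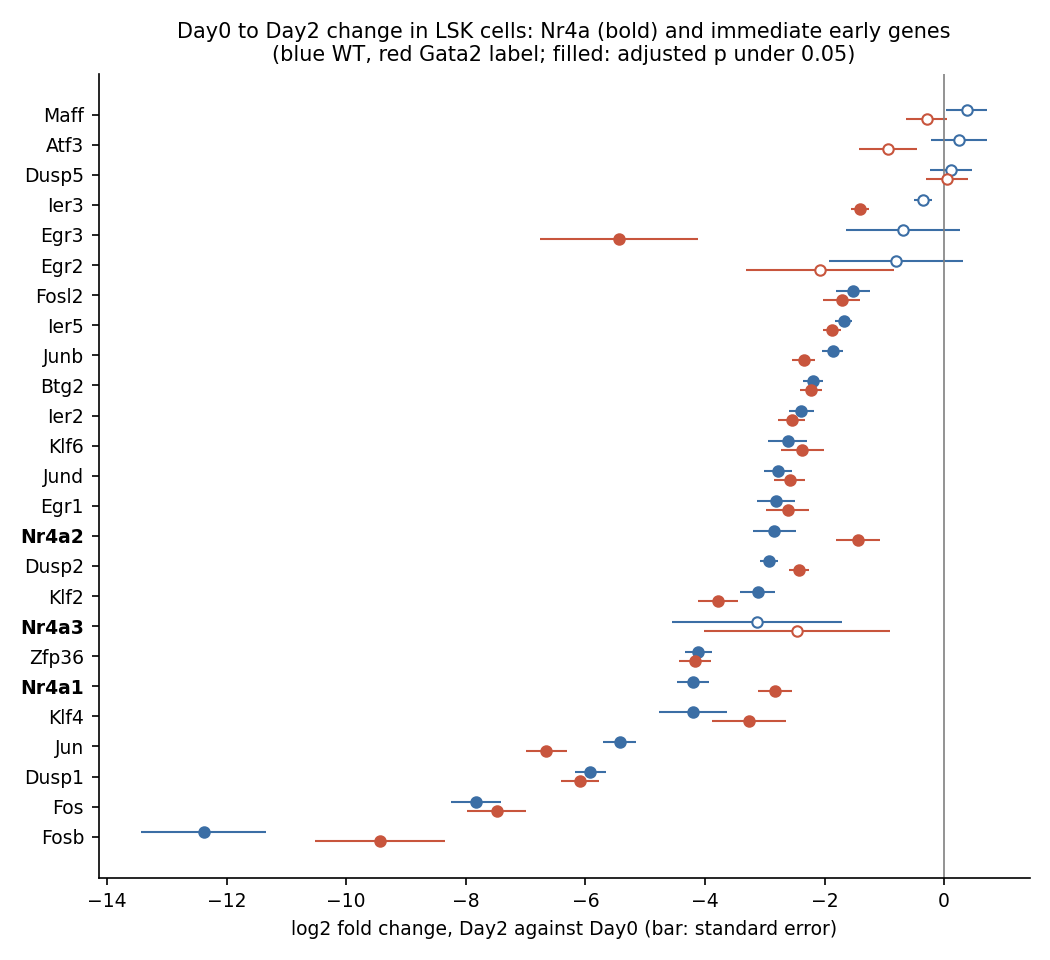
Log2 fold change from Day0 to Day2 (x axis) of the 3 Nr4a genes and 22 immediate early genes (y axis) in WT (blue) and Gata2-labelled (red) LSK libraries; bars are standard errors, and filled points have an adjusted p under 0.05. Nr4a1 is at -4.20 and -2.83 and Nr4a2 at -2.85 and -1.44, whereas Jun is at -5.43 and -6.65.

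Receptors that raise cAMP are one route to Nr4a induction. Of 6 such genes, 2 were higher over time in WT and 0 lower (all genes: 11.9% and 17.9%). The 2 were the prostacyclin receptor gene Ptgir (2.37, SE 0.59, edgeR adjusted p = 0.0165) and the adenosine receptor gene Adora2b (3.11, SE 0.99, adjusted p = 0.041). The median log2 fold change of the 6 was 0.84 in WT, where 5 were positive, and -0.32 under the Gata2 label, where 4 were negative. Leaving out each library gave 1 to 5 called higher in WT: 5 without Day0_WT replicate 2, 2 without Day0_WT replicate 1 and 1 in each of the other 8 fits. The WT median was 5.98 and -0.15 without those Day0_WT libraries, so its direction rests on Day0_WT replicate 1.

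Of 17 CREB factors, coactivators and kinases, 3 were higher and 6 lower in WT (all genes: 11.9% and 17.9%). Under the Gata2 label 2 were higher and 1 lower (all genes: 4.48% and 4.82%). Single Day0_Gata2 or Day2_WT libraries were also left out. In WT 2 or 3 were then higher and 3 to 5 lower (all genes lower: 10.1% to 14.2%). Under the Gata2 label 1 or 2 were higher and 1 lower (all genes lower: 2.07% to 4.29%). With any single library left out, the median ran from -0.89 to -0.16 in WT and from -0.22 to -0.05 under the Gata2 label. Prkar2b, a regulatory subunit of protein kinase A that restrains its catalytic subunit, was higher under both labels (1.70, SE 0.14, and 1.55, SE 0.13). The coactivator gene Crebbp was lower in WT (-1.95, SE 0.37, adjusted p = 0.00566), where it went from 208 to 53.6 CPM, and Atf1, a close relative of CREB, was higher under the Gata2 label (0.64, SE 0.16, adjusted p = 0.0373). Creb1 itself had -0.42 in WT (SE 0.31) and 0.09 under the Gata2 label (SE 0.31), neither of which passed.

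Genes that cAMP induces fell over the same interval. Of 11, 10 were lower in WT (all genes: 17.9%) and 8 under the Gata2 label (all genes: 4.82%), and 0 were higher. The medians of the 11 were -2.42 and -2.32. Fos, Fosb, Dusp1 and Junb are also among the immediate early genes, and Sik1 and Crem among the CREB list, so the counts share members. Sik1, a kinase that holds CREB coactivators in the cytoplasm, went from 218 to 22.4 CPM in WT and from 114 to 22.8 CPM under the Gata2 label (-3.28, SE 0.32, and -2.32, SE 0.34). Rgs2, a brake on G protein signalling, fell by 2.42 (SE 0.19) and 2.20 (SE 0.20). Crem, a CREB family member, was lower in WT (-2.02, SE 0.41, adjusted p = 0.00773) and had -1.09 under the Gata2 label (SE 0.43, adjusted p = 0.147).

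At Day0 10 of these 11 genes had a lower mean with the Gata2 label, with a median log2 fold change of -0.51. Sik1 had -0.94 and Crem -1.05, both nearer to the Nr4a2 value of -0.89 than to the Nr4a1 value of -1.73. Without single Day0_Gata2 or Day2_WT libraries, 10 or 11 were tested and 10 were lower over time in WT (all genes: 10.1% to 14.2%). Under the Gata2 label 7 or 8 were lower (all genes: 2.07% to 4.29%). With any single library left out, the median over time ran from -2.76 to -2.42 in WT. Under the Gata2 label it ran from -2.45 to -2.17.

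In T cells Nr4a1 is switched on by calcium, through MEF2 factors that class IIa histone deacetylases hold in check. Of 16 genes of this route with calcineurin and NFAT, 2 were higher and 3 lower in WT (all genes: 11.9% and 17.9%). Under the Gata2 label 1 was higher and 1 lower (all genes: 4.48% and 4.82%). The counts of this list were thus near the shares over all genes. The calcineurin regulatory subunit gene Ppp3r1 was higher under both labels (1.14, SE 0.16, and 1.10, SE 0.15) and the deacetylase gene Hdac7 lower under both (-1.49, SE 0.20, and -1.20, SE 0.21). Hdac4 (-1.07, SE 0.26) and Mef2c (-0.74, SE 0.23) were lower in WT, and Camk4, a calcium-dependent kinase gene named here after its value was seen, was higher (1.87, SE 0.59). With single Day0_Gata2 or Day2_WT libraries left out, 1 to 5 were lower in WT (all genes: 10.1% to 14.2%). Under the Gata2 label 1 was lower each time (all genes: 2.07% to 4.29%). With any single library left out, the median ran from -0.40 to -0.14 in WT and from -0.15 to 0.08 under the Gata2 label.

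Of 17 genes linked to Nr4a action in blood cells, 2 were higher and 9 lower over time in WT (all genes: 11.9% and 17.9%). Under the Gata2 label 0 were higher and 8 lower (all genes: 4.48% and 4.82%). Jun, Junb and Egr1, which are immediate early genes as well, led the lower ones. Cdkn1a, a cyclin-dependent kinase inhibitor, was higher in WT (1.5, SE 0.21, adjusted p = 0.00158), as was the myeloid factor gene Cebpa (1.69, SE 0.43), named after its value was seen. The apoptosis gene Bcl2l11 was lower under both labels (-0.95, SE 0.24, and -1.41, SE 0.26). With single Day0_Gata2 or Day2_WT libraries left out, 7 to 9 of 16 or 17 tested were lower in WT (all genes: 10.1% to 14.2%). Under the Gata2 label 4 to 7 were lower (all genes: 2.07% to 4.29%). With any single library left out, the median ran from -1.13 to -0.56 in WT and from -0.63 to -0.21 under the Gata2 label.

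Nr4a1 is required for nonclassical monocytes, so genes of those cells were followed as well. Of 11, 1 was higher and 7 lower over time in WT (all genes: 11.9% and 17.9%). Under the Gata2 label 0 were higher and 3 lower (all genes: 4.48% and 4.82%). The medians of the 11 were -2.28 and -1.57. Klf2 (-3.12, SE 0.29), the octamer-binding factor gene Pou2f2 (-2.72, SE 0.41), Ace (-6.23, SE 1.0) and Cebpb (-2.28, SE 0.43) had the lowest p in WT. Klf2, Ace and Cebpb were the 3 lower under the Gata2 label. Klf2 is also among the immediate early genes and Cebpb among the genes linked to Nr4a action, so the counts share members. Ace, the angiotensin-converting enzyme gene, went from 14.6 ± 6.45 CPM (SD, n = 2) to 0.193 ± 0.102 (n = 3) in WT and stood at 8.61 ± 2.74 CPM in Week2_WT. With single Day0_Gata2 or Day2_WT libraries left out, 6 were lower in WT each time (all genes: 10.1% to 14.2%). Under the Gata2 label it was 2 or 3 (all genes: 2.07% to 4.29%). With any single library left out, the median ran from -2.80 to -0.89 in WT and from -2.05 to -1.28 under the Gata2 label. Csf1r and Cx3cr1 did not pass (0.82, SE 0.41, and -0.34, SE 0.41, in WT), and Csf1r already stood at 82.3 to 241 CPM at Day0. Summed monocyte and macrophage markers were higher at Day2 (783 to 1104 CPM) than at Day0 (265 to 596 CPM). Within that sum Ccr2 went from 16.2 to 36.6 CPM at Day0 to 210 to 302 at Day2. Ly6c2 was also higher in every Day2 library. Csf1r, Cd68, Adgre1 and Itgam overlapped between the times.

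The genes whose log2 levels followed each member most closely across the 10 LSK libraries were found among 10576 genes averaging 5 CPM or more. For Nr4a1 they were Hoxa9, a stem cell transcription factor gene (r = 0.981), Spry1 (0.972), the histone gene H3f3b (0.971), Nkx2-3 (0.970) and Tmem191c (0.970). For Nr4a2 they were Klhdc8b (0.987), Gm11769 (0.982), Mir99ahg (0.981), Plcb2 (0.979) and Jmjd1c (0.975). For Nr4a3 they were Supt3 (0.971), Pcgf1 (0.955), Ubxn6 (0.952), Pdzk1ip1 (0.951) and Smim24 (0.950). These are descriptions: the 10 points share libraries and fall into a Day0 and a Day2 set, which alone gives high values.

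Among the members themselves, r across the 10 LSK libraries was 0.939 for Nr4a1 with Nr4a2, 0.906 for Nr4a1 with Nr4a3 and 0.807 for Nr4a2 with Nr4a3. Over the 6 Week2 libraries, which share a time and a cell fraction, the same 3 values were -0.39, 0.37 and 0.21, so the 3 genes were not ordered alike there. None of the 5 genes closest to a member in LSK cells was among the 5 closest at Week2. At Week2 they were Mob3b (0.961), Cebpb (0.957), Zdhhc18 (0.955), Sos2 (0.946) and Gm15448 (0.943) for Nr4a1. Those of Nr4a2 were A530040E14Rik (0.966), Fcmr (0.963), Snx29 (0.962), Fcer2a (0.950) and Wnt10a (0.950), of which Fcmr and Fcer2a encode Fc receptors of B cells. On the same Week2 TMM scale Nr4a2 was highest in the library of the highest B cell marker sum. Without a scaling factor another library was highest for Nr4a2, and a link was not tested. Nr4a3 was followed by Ppp1r15a (0.995), Camk1d (0.941), 1810026B05Rik (0.940), Sulf2 (0.934) and Ddit3 (0.932).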

How the data were processed

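The authors deposited 1 table of raw read counts, 16 libraries by 45706 Ensembl IDs. Per the submitters' processing notes, the tools were Trimmomatic 0.38 and STAR 2.5.2b and the build mm10; counting program, strand setting and annotation: not given in the sources used here. Symbols, coordinates and exon lengths came from GENCODE M21 (45143 IDs had a symbol).

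Tests on these counts used edgeR 4.0.16 (R 4.3.3) with TMM scaling, filterByExpr (minimum count 10), robust quasi-likelihood test, Benjamini-Hochberg adjustment over all genes tested, and a threshold of 0.05. A single fit of 4 groups took the 10 LSK libraries, the 6 Week2 libraries another; the comparisons over time share the Day0 libraries with those between labels. CPM and RPKM were computed from the counts and TMM sizes. No pair of replicates agreed within sampling noise. The procedure was tested on simulated data.

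Members and gene lists were chosen with earlier results of these data known. The rule for names took the members, up to 4 called genes of lowest p per list and comparison, the nuclear receptors of highest RPKM, and the 5 genes of highest correlation of log2(CPM + 1); of these the text prints those a result turns on. The alternatives were RLE scaling, no low count filter, DESeq2 1.42.0, the compared groups alone, the replicate block, sex (male above 10 CPM of Ddx3y), each library left out, and, added after seeing the data, all 16 libraries in 1 fit and lists without each library. For the receptors that raise cAMP, the calls over time under the Gata2 label are not reported here.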

Additional observations from a re-analysis of the deposited data

Results flagged for a closer look

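Nr4a2 stood out because its difference between labels pointed in opposite directions at the 2 LSK times. At Day0 both WT libraries (38.3 and 28.7 CPM) lay above all 3 Gata2-labelled ones (15.7, 21.4 and 17.1 CPM), and at Day2 both Gata2-labelled libraries (6.48 and 6.84 CPM) lay above all 3 WT ones (5.27, 6.08 and 2.62 CPM). Over all genes, 14.2% did not overlap with the Gata2 label lower at Day0 and 9.96% with it higher at Day2. The log2 fold changes were -0.89 and 0.52, which differ by 1.41. The Day2 value had an edgeR adjusted p of 0.994 and was 0.25 without Day2_WT replicate 3. That difference was not tested, because the Day0 part of it was known when the genes were chosen.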

How the results depend on the processing

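The falls of Nr4a1 under both labels and of Nr4a2 in WT passed the threshold under every alternative run: -3.94 to -4.45 for Nr4a1 in WT (adjusted p at most 0.003), -2.62 to -3.02 under the Gata2 label (at most 0.0144) and -2.60 to -3.08 for Nr4a2 in WT (at most 0.0276). The Nr4a2 fall under the Gata2 label was -1.64 (adjusted p = 0.067) with the replicate block and -1.57 to -1.29 with single libraries left out. Whether the replicate numbers pair the samples was not determined. With group means taken out, same-numbered LSK libraries correlated at -0.17 to 0.11 (13 pairs) and Week2 libraries at -0.77 to 0.72 (3 pairs). Differently numbered ones correlated at -0.11 to 0.13 (24 pairs) and -0.92 to 0.61 (6 pairs). In groups this small the deviations of libraries mirror one another, so these values cannot decide it. Under the block the counts of genes called were 1 for Day2, 12 for Week2, 2747 for the time change in WT and 745 over time under the Gata2 label, and Nr4a3 had -1.55 at Day0, 1.60 at Day2 and 3.14 for the difference between labels in the time change. DESeq2 called 417, 144 and 1 genes between labels at Day0, Day2 and Week2, 3471 over time under the Gata2 label and 216 for the difference in change. Without the low count filter, 1, 22 and 2 genes were called at Day0, at Day2 and for the difference in change. With only the groups compared, 11 were called at Day2, 1199 over time in WT and 5676 over time under the Gata2 label, where Nr4a3 passed at -2.46 (adjusted p = 0.0445). Sex as a covariate gave 3 calls at Day2 and 2 at Week2, and all 16 libraries in 1 fit gave 4 at Day2.

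With single libraries left out, calls ran from 0 to 8655 at Day0 (8655 without Day0_WT replicate 2), 0 to 48 at Day2 (48 and 32 without Day0_WT replicates 1 and 2), 0 to 4 at Week2 (4 without Week2_Gata2 replicate 3), 3191 to 12386 over time in WT (12386 without Day0_WT replicate 2), 499 to 4863 over time under the Gata2 label and 0 to 6733 for the difference in change (6733 without Day0_WT replicate 2). Nr4a1 then had -1.96 to -1.29 at Day0 and 0.97 to 1.63 for the difference in change. Nr4a3 had -1.52 to -0.94 at Day0, -1.96 to 3.82 at Day2 (3.82 without Day2_WT replicate 3, 0.33 without Day2_Gata2 replicate 1), -7.47 to -2.56 over time in WT and -0.80 to 5.02 for the difference in change. At Week2 the direction reversed for Nr4a1 (range -0.10 to 1.15), Nr4a2 (-0.10 to 0.45; -0.08 and -0.01 in the other 2 reversals) and Nr4a3 (-0.16 to 0.27; -0.11 in the other). Where an arm held 1 library, it was assumed to vary like the other groups. The cause was not tested for any of these changes. Counts of 0 to 35 limit what can be said of Nr4a3 at Day2.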
